A study of Mus musculus with 4 samples.

Results

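The PYHIN genes form a cluster on mouse chromosome 1 and encode interferon-inducible proteins, most of which join a pyrin domain to a DNA-binding HIN domain. They were followed in RNA of long-term haematopoietic stem cells (LT-HSCs), the bone marrow cells that sustain all blood lineages. Members were chosen by name, from a list of 10 PYHIN symbols. The list used no measured value, but it was chosen with earlier results of these data known. The deposited table had a row for 8 of them, Aim2, Ifi213, Ifi209, Ifi207, Ifi204, Mndal, Ifi203 and Ifi205, among 4167 genes. The symbols Mnda and Pyhin1 had no row of their own, and the RefSeq gene table gives Mnda as a synonym of Ifi211 and Pyhin1 as a synonym of Ifi209. Another 6 rows belonged to genes of the same family that were not listed, and these are described separately.

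The WT group held 2 libraries of LT-HSCs sorted by flow cytometry from the tibia and femur marrow of wild-type mice, and the ATF4 KO group held 2 libraries of the same cells from mice in which Atf4 was conditionally deleted. The product of Atf4 is the transcription factor through which the integrated stress response switches on genes of amino acid supply. The Cre driver, strain, age and sex of the mice, and whether each library came from a separate animal, are not given in the sources used here, so a p-value measures at most the spread between these libraries. Polyadenylated RNA was sequenced after a preparation based on Smart-seq2, a method for small amounts of RNA, and the study asked what the loss of ATF4 does to adult stem cells.

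PYHIN proteins are known as sensors and regulators in the innate response to DNA. AIM2 binds DNA in the cytosol and assembles an inflammasome, which activates an inflammatory caspase. Relatives such as the product of Ifi204, a mouse counterpart of human IFI16, act in the nucleus and cytosol on DNA sensing and on transcription. The genes are switched on by type I interferon through transcription factors that bind the interferon-stimulated response element, a pair of GAAA repeats.

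The shared promoter sequence of the family is shown first, since its genes are described as interferon-inducible. RefSeq promoter entries on GRCm38.p6, each with 250 bases before and 50 after a transcript start, were found for 7 of the 8 members. The entry of Ifi204 was missing. The motif GAAANNGAAA, searched on both strands, occurred in an entry of 5 of these 7 members and of 9 of the 12 PYHIN genes with an entry. Among all 32851 promoter entries of the mouse genome it occurred in 3.44%. The printed windows are the 150 bases before the start, 5′ to 3′ on the gene's own strand, with that motif in capitals. They lie at chr1:173880188-173880337 (Mndal), chr1:173942493-173942642 (Ifi203), chr1:173741810-173741959 (Ifi207), chr1:173599273-173599422 (Ifi213) and chr1:174031756-174031905 (Ifi205) on the minus strand, and at chr1:173630709-173630858 (Ifi209) and chr1:173420454-173420603 (Aim2) on the plus strand. Mndal and Ifi203 each have a second entry, and the entry with the motif nearest its start is shown. The second Ifi203 entry, with its window at chr1:173942673-173942822, lies directly before the annotated 5′ end of Ifi203 and held no motif. The Ifi203 window shown lies inside the annotated span of Ifi203 and next to the annotated 5′ end of Mndal. Which of these genes it serves was not tested. The second Mndal entry held the motif on the opposite strand.
Mndal: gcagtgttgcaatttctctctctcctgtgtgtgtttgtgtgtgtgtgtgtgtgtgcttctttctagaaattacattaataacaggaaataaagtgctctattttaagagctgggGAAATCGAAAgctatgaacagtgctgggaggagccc
Ifi203: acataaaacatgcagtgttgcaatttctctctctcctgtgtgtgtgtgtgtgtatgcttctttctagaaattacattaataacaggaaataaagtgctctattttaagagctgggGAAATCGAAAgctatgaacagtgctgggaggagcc
Ifi207: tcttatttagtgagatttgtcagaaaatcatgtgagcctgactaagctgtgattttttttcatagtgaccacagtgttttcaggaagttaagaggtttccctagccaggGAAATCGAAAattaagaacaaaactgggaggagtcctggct
Ifi213: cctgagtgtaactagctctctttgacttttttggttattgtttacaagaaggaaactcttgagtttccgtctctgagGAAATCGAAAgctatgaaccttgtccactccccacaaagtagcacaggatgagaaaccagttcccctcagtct
Ifi205: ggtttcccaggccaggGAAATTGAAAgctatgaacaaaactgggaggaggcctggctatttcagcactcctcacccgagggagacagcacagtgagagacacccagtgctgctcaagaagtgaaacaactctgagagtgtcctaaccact
Ifi209: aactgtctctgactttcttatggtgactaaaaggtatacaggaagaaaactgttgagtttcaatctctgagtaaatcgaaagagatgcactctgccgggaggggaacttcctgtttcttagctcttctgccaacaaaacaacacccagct
Aim2: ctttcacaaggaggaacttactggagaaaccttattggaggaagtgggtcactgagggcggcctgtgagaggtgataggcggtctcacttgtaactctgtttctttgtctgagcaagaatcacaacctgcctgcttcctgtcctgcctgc

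In Mndal, Ifi203, Ifi207 and Ifi213 the motif had the same 10 letters, GAAATCGAAA, and began 36, 35, 41 and 73 bases before the start. This form of the motif was taken from the Mndal entry, after the promoters had been read, and only 16 of the 32851 entries held it on either strand, 7 of which belonged to PYHIN genes. The others in the family were Ifi206, Ifi208 and Ifi214. Counted from the first base of GAAATCGAAA, Ifi205 and Ifi211 carried the substitution C6T, which keeps the wider motif. Ifi209 carried G1T, which breaks it, 79 bases before the start. The Aim2 entry differed from these letters at 4 or more positions throughout on its own strand. A match describes the letters only, and no binding was measured.

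The deposited values are logarithms of base 2 in which each library is drawn towards the gene's mean over the 4 libraries. The whole reads behind them were recovered for 1894 of the 1928 genes with a value, the 8 members among them. Over those genes the WT libraries held 948908 and 774790 reads and the ATF4 KO libraries 38648 and 34775. A read was found for 1709 and 1646 genes in WT and for 320 and 335 genes in ATF4 KO, and the 10 leading genes took 13.1% and 14.1% of the WT reads but 53.7% and 52.3% of the ATF4 KO reads. Relative to WT library 1, the ATF4 KO libraries were at 4.07% and 3.66% by summed reads, but at 0.165% and 0.171% by the size factors inside the deposited values. The reads expected in ATF4 KO at the WT level were therefore 22.6 times higher by summed reads than by size factors, a shift of 4.50 on the log2 scale. Atf4 lies on a chromosome outside the rows analysed here, so its level could not be used to check the labels. Of 5 stem and progenitor genes in the table, Slamf1, the gene of the stem cell marker CD150, had 362 and 186 reads in WT and 0 in both ATF4 KO libraries. Cd34 had 18288 and 15275 reads in WT and 9 and 8 in ATF4 KO, and Cd48 had 1983 and 2511 in WT and 2 in each ATF4 KO library, although classical gates for mouse LT-HSCs take cells low in CD34 and without CD48.

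In WT stem cells the family was expressed unevenly, and Mndal and Ifi203 supplied most of its reads. These 2 genes took 72% and 70.9% of all PYHIN reads in WT libraries 1 and 2. Divided by size factor and by kilobases of annotated exon, Mndal stood at 27.3 and 21 and Ifi203 at 15.9 and 11.9. Aim2 followed at 6.73 and 6.14 and Ifi209 at 5.11 and 6.13 on this scale. The remaining members were far lower, with Ifi213 at 1.33 and 0.477, Ifi205 at 0.86 and 0.698, Ifi204 at 0.737 and 0.655, and Ifi207 at 0.552 and 0.17. The WT libraries of Mndal did not overlap with those of Ifi203, nor those of Ifi203 with Aim2. Aim2 and Ifi209 nearly met, at 6.14 and 6.13, and the WT libraries of Ifi213 overlapped with those of Ifi205, Ifi204 and Ifi207. Ifi205 and Ifi204 overlapped with each other, and both lay above Ifi207. Ifi207 and Ifi213 were 3.24 and 2.78 times higher in WT library 1 than in WT library 2, whereas the other 6 members differed by ratios of 0.834 to 1.33.

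In the ATF4 KO libraries most members had 0 or 1 read, apart from Ifi204 in one library and Mndal in the other. Aim2, Ifi207 and Ifi205 had 0 reads in both, and Ifi213, Ifi209 and Ifi203 had 1 read in a single library. The members without Ifi204 had 5690 and 3538 reads in WT but 2 and 27 in ATF4 KO. Per 1000000 recovered reads this was 5996 and 4566 in WT and 51.7 and 776 in ATF4 KO. Their 29 ATF4 KO reads were 0.0748 of those expected by summed reads, but 1.69 times the 17.11 expected by size factors, and 25 of the 29 came from Mndal in ATF4 KO library 2. With Ifi204 included, the members had 375 ATF4 KO reads, of which 346 were of Ifi204 in ATF4 KO library 1. These were 0.957 of the reads expected by summed reads and 21.7 times the 17.3 expected by size factors. Ifi204 alone made up 99.4% of the PYHIN reads in ATF4 KO library 1, and Ifi203 and Mndal made up 96.3% in ATF4 KO library 2. Where a sum was below the expected reads, lower RNA per cell and fewer expressing cells cannot be told apart in such bulk libraries. Nor can either be told apart from the sparse detection in the ATF4 KO libraries, where a read was found for 320 and 335 genes.

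**Figure D1:**
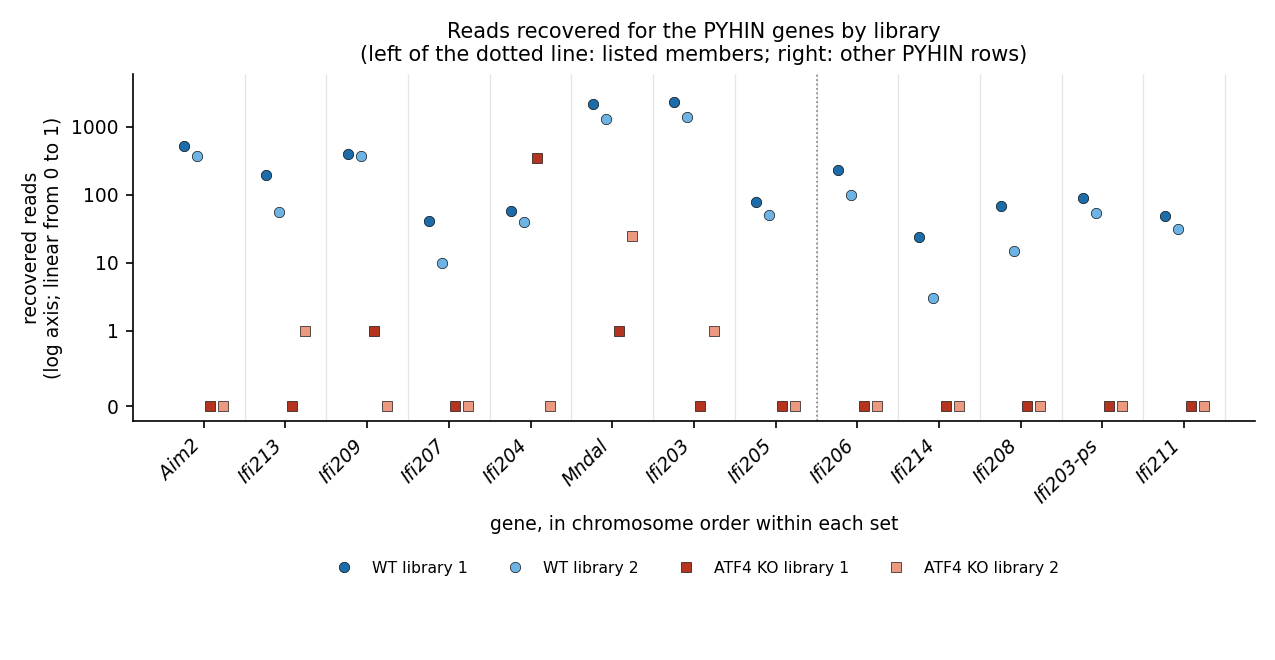
Reads recovered for each PYHIN gene (vertical axis, logarithmic above 1 read) in the 2 WT libraries (circles) and the 2 ATF4 KO libraries (squares), with the listed members left of the dotted line. WT reads were above 0 for every gene drawn, while most ATF4 KO squares sit at 0 or 1, apart from Ifi204 at 346 and Mndal at 25.

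Aim2, the cytosolic DNA sensor, was the only member called lower in ATF4 KO, where 22.4% of all tested genes were. Aim2 (ENSMUSG00000037860.15, chr1:173350879-173466040 on GRCm38, plus strand) had deposited log2 values of 4.36 and 4.24 in WT and 2.80 and 2.77 in ATF4 KO. Both ATF4 KO libraries lay below both WT libraries. The difference, ATF4 KO minus WT, was -1.51 ± 0.077 (SE, n = 2 per group), with an adjusted p of 0.00236 in limma's moderated test with Benjamini-Hochberg adjustment over 1199 genes. Behind these values stood 512 and 369 reads in WT and 0 in both ATF4 KO libraries. At the WT level 1.648 reads were expected by size factors, fewer than the 3 that a count of 0 allows, so no decrease was detectable at this depth on that scale. By summed reads 37.29 were expected, and Aim2 was at least 12.4-fold lower, with the limit of 3 reads taken over both libraries. The size of the deposited difference was shared by genes of the same level. Another 46 genes without an ATF4 KO read and with a WT mean within 0.2 of that of Aim2 had differences between -1.68 and -1.34, and 45 of them passed the same test. With limma's voom on the recovered reads and size factors as library sizes, the call of Aim2 was lost (adjusted p = 0.0839).

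Ifi203 was the member with the most reads in WT and showed a deficit on both scales. Ifi203 (ENSMUSG00000039997.16, chr1:173920407-173942672, minus strand), which encodes a nuclear HIN protein, had deposited values of 6.60 and 6.22 in WT and 3.22 and 4.85 in ATF4 KO, without overlap between the groups. The difference was -2.38 ± 0.75 on the log2 scale and did not pass (adjusted p = 0.101, limma). Its reads numbered 2315 and 1370 in WT and 0 and 1 in ATF4 KO. The single read compares with 6.815 expected by size factors, a ratio of 0.147 (95% exact Poisson interval 0.00372 to 0.818), and with 154.5 expected by summed reads, a ratio of 0.00647 (0.000164 to 0.0361). Without ATF4 KO library 1 the ratio by size factors was 0.289 and its interval reached 1. Such intervals cover counting error only, since reads of amplified cDNA are not independent molecules.

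Mndal, its neighbour in the cluster and nearest in level, was high in one ATF4 KO library and low in the other. Mndal (ENSMUSG00000090272.8, chr1:173849126-173942491, minus strand) is named for its likeness to the myeloid nuclear differentiation antigen. Its deposited values were 6.68 and 6.38 in WT, 5.42 in ATF4 KO library 1 and 8.94 in ATF4 KO library 2, so the WT libraries lay between the 2 ATF4 KO libraries. The difference of 0.66 ± 1.52 did not pass (adjusted p = 0.728, limma). There were 2153 and 1310 reads in WT and 1 and 25 in ATF4 KO. The 26 ATF4 KO reads were 4.05 times the 6.415 expected by size factors (2.65 to 5.94) but 0.179 of the 145.4 expected by summed reads (0.117 to 0.262). The direction thus turned with the scale, and by size factors it also turned without ATF4 KO library 2, to a ratio of 0.317. The 3 genes whose 4 deposited values lay nearest to those of Mndal were Trmt1l, Rpl7a and Arhgap30, with largest differences of 0.25, 0.59 and 0.86 over the 4 libraries. Each of these 3 had 1 read in ATF4 KO library 1, and they had 20, 15 and 59 reads in ATF4 KO library 2.

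**Figure D2:**
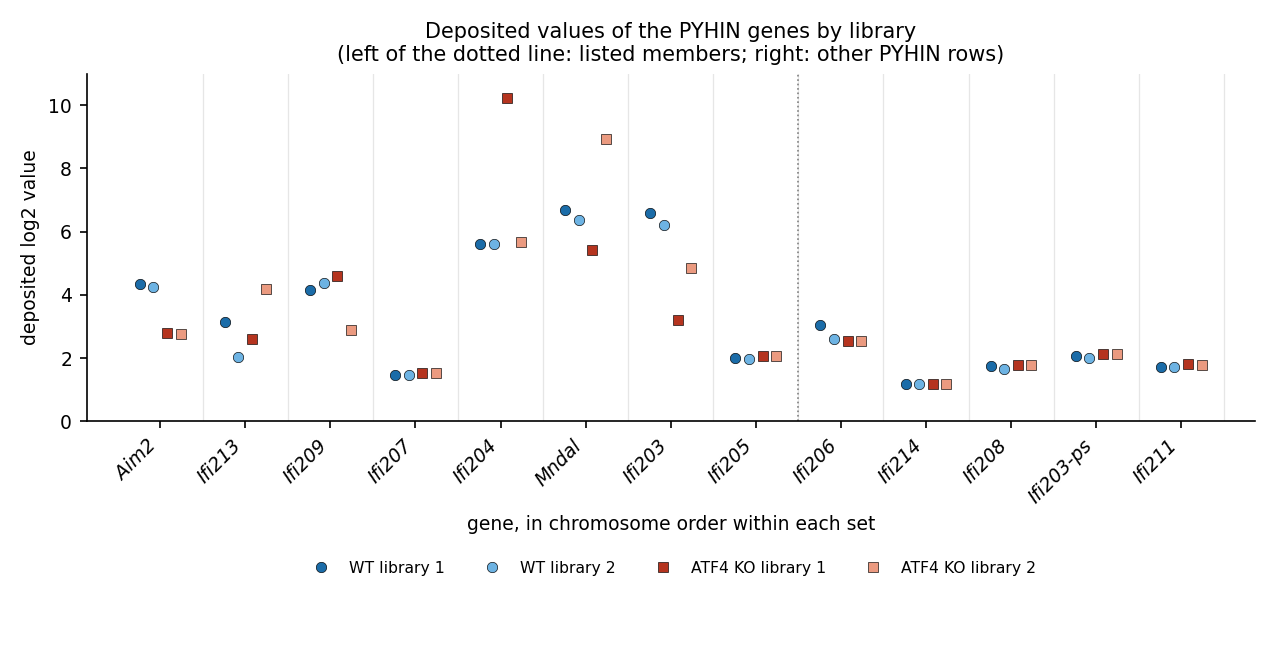
Deposited log2 values (vertical axis) of the PYHIN genes in the same 4 libraries. The ATF4 KO squares lie below the WT circles for Aim2 and Ifi203, on both sides of them for Mndal, and just above them for Ifi207 and Ifi205, which had 0 ATF4 KO reads.

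Ifi204 stood far above its WT level in ATF4 KO library 1 and was not found in ATF4 KO library 2. Ifi204 (ENSMUSG00000073489.6, chr1:173747293-173766943, minus strand) had 57 and 40 reads in WT, 346 in ATF4 KO library 1 and 0 in ATF4 KO library 2. Only 26 genes had more reads in ATF4 KO library 1, against 803 and 815 in the WT libraries. The 346 reads exceeded the 0.1812 expected by size factors 1910-fold and the 4.101 expected by summed reads 84.4-fold (75.7 to 93.8). This excess rests wholly on ATF4 KO library 1, since without it there were 0 reads. The deposited values were 5.62 and 5.62 in WT, 10.24 in ATF4 KO library 1 and 5.66 in ATF4 KO library 2, and the difference of 2.33 ± 1.94 did not pass (adjusted p = 0.399, limma). The WT values of 5.62 lay well above the 1.31 that is the log2 of the WT mean of reads per size factor, so for this gene the deposited WT level is not that of its own WT reads.

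Large counts in a single ATF4 KO library were not peculiar to Ifi204. At least 100 reads in ATF4 KO library 1 and 0 in ATF4 KO library 2 were found for 20 genes, the reverse for 22, and at least 100 in both for 9. Ifi204 is known from macrophages and other myeloid cells, and of the myeloid markers 1 was high in ATF4 KO. The 5 myeloid markers described here, of 14 listed, summed to 2463 and 2975 reads per 1000000 in WT and to 40649 and 25909 in ATF4 KO libraries 1 and 2. Fcer1g, the signalling chain of Fc receptors, had 1084 and 982 reads in WT and 1569 and 901 in ATF4 KO, and was thus high also in ATF4 KO library 2, where Ifi204 had 0 reads. Fcgr3 had 2 reads in ATF4 KO library 1 and 0 in the other, and Fcgr2b, Fcgr4 and Cxcr2 had 0 in both. The part of these markers in the Ifi204 reads was not tested.

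The other low members gave too few reads for a direction by size factors. Ifi213 (ENSMUSG00000073491.11, chr1:173566283-173599274, minus strand) had 197 and 56 reads in WT and 0 and 1 in ATF4 KO, against 0.4508 expected by size factors and 10.27 by summed reads. Its ratio was 2.22 (0.0562 to 12.4) on the first scale and 0.0973 (0.00246 to 0.542) on the second. Its deposited values of 3.14 and 2.05 in WT and 2.61 and 4.20 in ATF4 KO overlapped, with a difference of 0.81 ± 0.82 (adjusted p = 0.467, limma).

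Ifi209 (ENSMUSG00000043263.13, chr1:173630917-173647928, plus strand), the mouse gene also called Pyhin1, had 394 and 373 reads in WT and 1 and 0 in ATF4 KO. The ratio to expected reads was 0.686 (0.0174 to 3.82) by size factors and 0.0304 (0.000769 to 0.169) by summed reads. Its values of 4.15 and 4.37 in WT lay between 4.59 and 2.88 in ATF4 KO, and the difference was -0.53 ± 0.72 (adjusted p = 0.572, limma). The 1 read of ATF4 KO library 1 thus set a deposited value above both WT libraries, whose values rest on 394 and 373 reads.

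Ifi207 and Ifi205 passed the test as higher in ATF4 KO although no ATF4 KO read was found for either. Ifi207 (ENSMUSG00000073490.11, chr1:173723427-173741747, minus strand) had 41 and 10 reads in WT, and its deposited values were 1.48 and 1.46 in WT and 1.53 in each ATF4 KO library. Its difference was 0.057 ± 0.011 (adjusted p = 0.0303, limma). Ifi205 (ENSMUSG00000054203.7, chr1:174011998-174031810, minus strand) had 78 and 50 reads in WT, and its values were 2.0 and 1.96 in WT and 2.07 in each ATF4 KO library. Its difference was 0.091 ± 0.018 (adjusted p = 0.0368, limma). By summed reads 5.387 reads of Ifi205 were expected, which makes it at least 1.8-fold lower, and 2.06 of Ifi207, which is below the limit of 3. By size factors 0.2378 and 0.0903 were expected, so nothing was detectable for either gene. Without ATF4 KO library 1 or 2 the call of Ifi205 was lost (adjusted p = 0.136 and 0.128, limma). Both calls were lost when limma's prior variance did not follow the level (adjusted p = 0.127 and 0.0982), and voom with summed reads as library sizes turned the differences to -0.655 and -2.41.

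Across the members, limma thus called 1 lower and 2 higher of the 8 tested, where 22.4% of the 1199 tested genes were called lower, 24.6% higher and 47.0% in either direction. The share of members called was near that of all genes. The median difference was 0.0739 over the members and 0.0183 over all tested genes. With either ATF4 KO library left out 5 members were called, but not the same 5, where 73.7% of the tested genes were called without ATF4 KO library 1 (36.9% lower and 36.8% higher) and 72.1% without ATF4 KO library 2 (37.6% lower and 34.4% higher). Aim2 and Ifi203 were called lower and Ifi207 higher in both. Without ATF4 KO library 1 Mndal was also called higher (2.42, adjusted p = 0.00325, limma) and Ifi209 lower (-1.38, adjusted p = 0.0103, limma). Without ATF4 KO library 2 Mndal was called lower (-1.1, adjusted p = 0.0107, limma) and Ifi204 higher (4.62, adjusted p = 5.52e-05, limma). All 3 members called with the 4 libraries had 0 ATF4 KO reads. Their ATF4 KO values therefore come from the shrinkage towards the gene's mean, and their SEs hold no counted spread between the ATF4 KO libraries. Among all tested genes with recovered reads, 539 of 675 without an ATF4 KO read were called, against 23 of 490 with one. In the 675 genes the direction followed the WT level. All 353 with a higher deposited value in ATF4 KO had WT means of 0.98 to 2.32, and all 322 with a lower one had WT means of 2.33 to 7.15. Ifi207 and Ifi205, with WT means of 1.47 and 1.98, lay in the first range and Aim2, with 4.30, in the second.

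**Figure D3:**
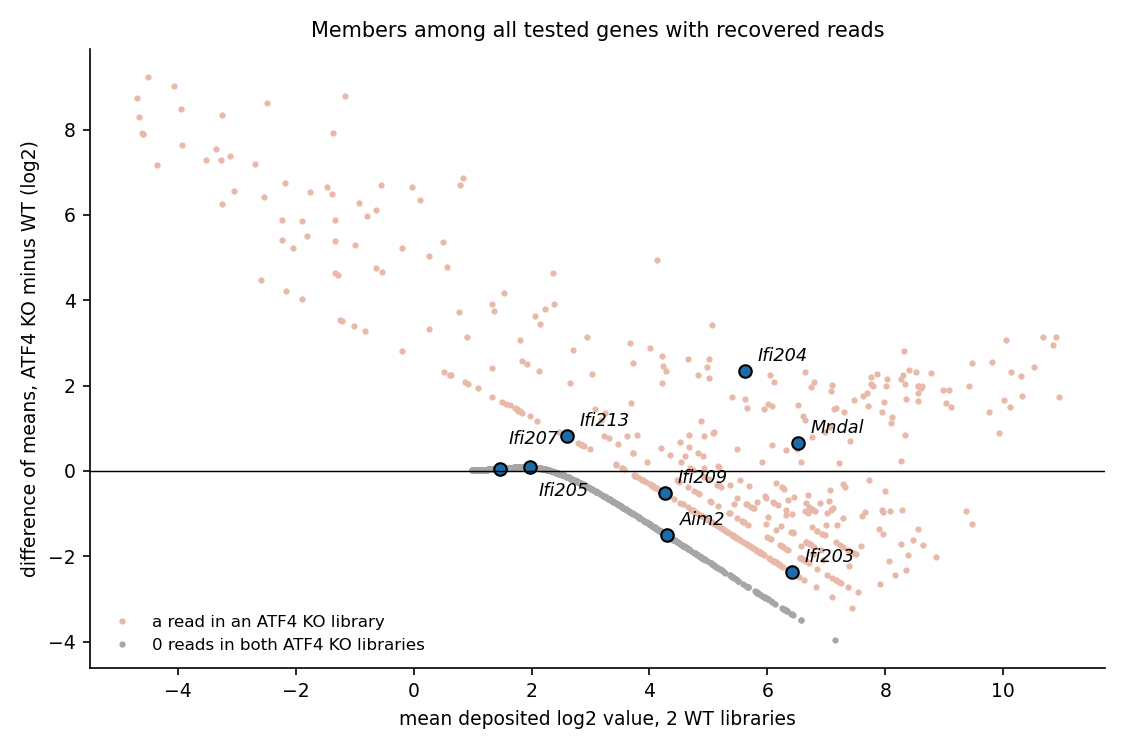
Difference between the ATF4 KO and WT means of the deposited log2 values (vertical axis) against the WT mean (horizontal axis) for the tested genes with recovered reads, in grey for 0 ATF4 KO reads and in light red otherwise, with the members labelled. Aim2, Ifi205 and Ifi207 lie on the single curve formed by the genes without an ATF4 KO read, which crosses 0 at a WT mean between 2.32 and 2.33.

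Counted in reads, the members again depended on the scale. By size factors 1 member, Ifi203, was below the expected reads and 2, Mndal and Ifi204, were above, where 6.5% of 1876 genes were below and 8.9% above. By summed reads 6 members were below and 1, Ifi204, was above, where 40.6% of the genes were below and 6.13% above. Ifi207 was on neither side. By size factors the numbers were 0 below and 1 above without ATF4 KO library 1, and 1 and 1 without ATF4 KO library 2. Without ATF4 KO library 1 the numbers by summed reads were 4 below and 0 above, and without ATF4 KO library 2 they were 5 below and 1 above. Detection followed the WT level. A read in at least 1 ATF4 KO library was found for 66.3% of the 246 genes with a WT level of 30 to 100 reads per size factor, the range of Ifi203 and Mndal, and for 36.5% of the 230 genes at 10 to 30, the range of Aim2 and Ifi209. It was found for 20.4% of the 142 genes at 2 to 5, the range of Ifi204 and Ifi205.

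**Figure D4:**
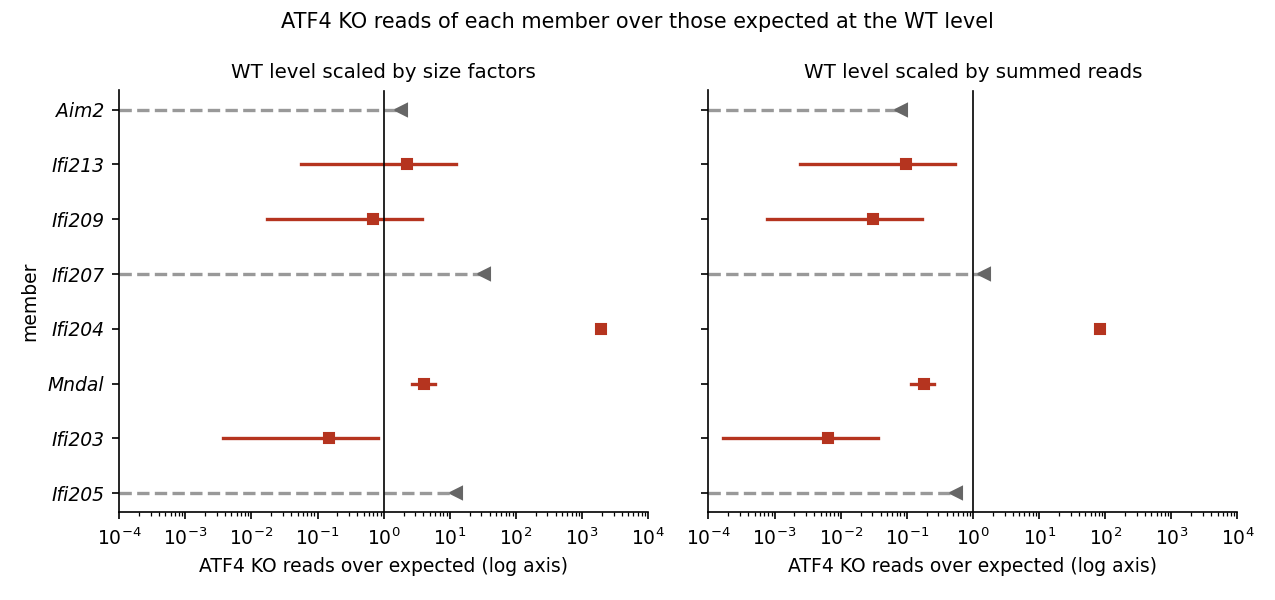
ATF4 KO reads of each member over the reads expected at its WT level (horizontal axis, logarithmic), scaled by size factors on the left and by summed reads on the right. Squares with bars are ratios with 95% exact Poisson intervals, and arrowheads mark the highest ratio allowed by a count of 0 for a gene with 0 reads. Ifi204 lies above 1 and Ifi203 below 1 on both sides, while Mndal moves from 4.05 to 0.179.

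The 6 further PYHIN rows had few reads in WT and 0 in ATF4 KO. Ifi202b was listed at 0 in all 4 libraries. Ifi206, Ifi208, Ifi211, Ifi214 and the pseudogene Ifi203-ps had 455 reads together in WT library 1 and 200 in WT library 2. Ifi206 was the highest with 227 and 98 WT reads, and by summed reads it was at least 4.48-fold lower. Ifi211 had 48 and 31 WT reads and Ifi214 had 24 and 3, and both were called higher with 0 ATF4 KO reads, by 0.083 (adjusted p = 0.00479, limma) and 0.028 (adjusted p = 0.0119, limma). By summed reads Ifi211 was at least 1.11-fold lower, and the 1.071 reads expected of Ifi214 were under the limit of 3. The copies resemble each other, and how reads that fit several genes were counted is not given in the sources used here. Of all stretches of 50 bases in the annotated transcripts, Ifi209 shared 33.4% with Ifi214, and Ifi211 shared 72.8% with other PYHIN genes. Ifi204, Ifi205, Mndal, Ifi213, Ifi203 and Ifi207 shared 19.2%, 18.6%, 17.7%, 15.6%, 12.2% and 5.39%. Aim2 was the only member that shared 0. The annotated spans of Mndal and Ifi203 overlap on the same strand, with 37 exon bases in common.

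Other genes of interferon signalling, chosen as lists by name, were also counted. Every gene of these lists that limma called had 0 ATF4 KO reads. Of 20 genes for interferon receptors and signalling, 4 are described here, and limma called 2 lower and 0 higher. Stat4, a transcription factor of cytokine signalling, had 846 and 516 reads in WT and 0 in both ATF4 KO libraries. Ikbke, a kinase that activates interferon regulatory factors, had 552 and 389 reads in WT and 0 and 5 in ATF4 KO. Of 39 interferon-stimulated genes 6 were in the table, with 1 called lower and 0 higher. Sp140, a nuclear body protein of leukocytes, had 431 and 315 reads in WT and 1875 and 0 in ATF4 KO, on the side of Ifi204. Its relatives Sp100 and Sp110 had 2 and 2, and 3 and 1, ATF4 KO reads, from 3688 and 2380, and 2190 and 1791, in WT. Of 23 genes for cytosolic DNA sensing and inflammasomes 8 were in the table and 7 were tested, with 3 called lower and 0 higher. Casp8, a caspase that inflammasomes can recruit, had 3634 and 2748 reads in WT and 2 and 3 in ATF4 KO, and Traf2, an adaptor of inflammatory receptors, had 1702 and 1313 in WT and 655 and 0 in ATF4 KO. The 4 signalling genes summed to 12422 and 12301 reads per 1000000 in WT and to 103 and 230 in ATF4 KO. The interferon-stimulated genes summed to 10391 and 9293 in WT and to 48696 and 86.3 in ATF4 KO, and the DNA sensing genes to 7948 and 7420 in WT and to 17000 and 115 in ATF4 KO. Both sums were thus above WT in ATF4 KO library 1 and below it in ATF4 KO library 2 on this scale. The high sums each came from 1 gene. In ATF4 KO library 1, Sp140 held 1875 of the 1882 reads of its list and Traf2 held 655 of the 657 reads of its list. By size factors 1, 2 and 2 genes of the 3 lists were below the expected reads and 0, 1 and 1 above, and by summed reads 4, 5 and 6 were below and 0, 1 and 1 above. Of all 1876 genes 6.5% were below and 8.9% above by size factors, and 40.6% below and 6.13% above by summed reads. For limma's calls the shares over all tested genes were 22.4% lower and 24.6% higher. The median differences of the 3 lists were -1.29, -1.07 and -0.50, beside 0.0183 over all tested genes. The tested genes include 353 without an ATF4 KO read that had WT means of 0.98 to 2.32 and differences above 0 of at most 0.10. These medians are thus not matched for WT level, which the deposited differences followed.

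Markers of blood lineages were given the same count. Each marker called, 9 in all, had 0 ATF4 KO reads, and the 5 called higher, Fcgr4, Ctla4, Xcl1, Fcrla and Ackr1, had differences of at most 0.10. Of all tested genes 22.4% were called lower and 24.6% higher. Of 16 stem and progenitor markers 5 were in the table, with 2 called lower and 0 higher, and they summed to 23916 and 25424 reads per 1000000 in WT and to 336 and 288 in ATF4 KO. The myeloid list had 1 called lower and 1 higher of its 5 tested. Of 17 lymphoid markers 13 were in the table and 11 tested, with 1 called lower and 3 higher, and they summed to 13286 and 12379 reads per 1000000 in WT and to 155 and 3767 in ATF4 KO. Cd28, Ctla4, Icos, Cd247 and Zap70 of T cells had 0 ATF4 KO reads. Of 10 erythroid and megakaryocyte markers 3 were in the table and 2 tested, with 0 called lower and 1 higher, and they had 1 and 0 reads in ATF4 KO. By summed reads 5 stem and progenitor, 3 myeloid, 9 lymphoid and 2 erythroid and megakaryocyte markers were below the expected reads, and by size factors 2, 0, 0 and 0. Over all genes 40.6% were below by summed reads and 6.5% by size factors. The part of these markers in the members' values was not tested.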

How the data were processed

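RNA-seq of mouse LT-HSCs gave 4 libraries, grouped by their titles into 2 WT and 2 ATF4 KO. HISAT2 2.2.1, featureCounts, DESeq2 and GRCm38 stand without roles in the submitters' processing notes. What the authors deposited are log2 values, 1 per gene and library, per the file headers and the values themselves, and no source names the transform. Of its 4168 lines 1 is incomplete, and the 4167 others cover most of chromosome 1 and the start of chromosome 2, of which 2239 genes are at 0 in every library.

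The values met the model of a regularized logarithm: a negative binomial fit per gene with an intercept and 1 shrunken term per library, a lower limit of 0.5 on fitted reads and up to 100 iterations. Solving it back gave the ridge weight, 0.16449, the size factors, 21.72 and 17.16 for WT and 0.03595 and 0.03716 for ATF4 KO, and whole reads for 98.237% of the 1928 genes with values, with a median distance of 0.0002415 from whole numbers. The weight and WT size factors were chosen to make that distance small. The solution was tested on simulated data. Reads of the other genes are not in the summed reads.

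limma 3.58.1 (R 4.3.3, statmod 1.5.0) was fitted to the log2 values as deposited, with a trended prior and robust estimation, on the 1199 genes that reached 1 in 2 or more libraries. Benjamini-Hochberg adjusted p-values were read against 0.05. How often the fit calls a gene falsely was not tested for genes without an ATF4 KO read, nor for groups of unequal spread. The pooled SD within groups was 0.185 in WT and 1.39 in ATF4 KO, which the fit treats as 1 spread. The smallest p an exact permutation test can give with 2 libraries per group is 0.333, so none is reported. Expected ATF4 KO reads are the mean scaled WT reads times the summed ATF4 KO scale, with 95% exact Poisson intervals, and a count of 0 was taken to allow 3 reads over the pair. These read counts were compared after the values had been seen. Coordinates, exons and transcripts are of GENCODE M21 on GRCm38, and promoters are of RefSeq. Scripts used numpy 2.4.6, scipy 1.17.1 and pandas 2.3.3.

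Every member, the other PYHIN rows, the list genes and the 3 genes nearest to the member with the highest WT mean could be named. The members and lists were chosen with earlier results of these data known. Some list genes are not reported here and are left out of the lists' counts and sums.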

Additional observations from a re-analysis of the deposited data

How the results depend on the processing

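Of 62 values under the settings named beforehand for the 8 members' log2 differences, 50 kept the direction and the side of the threshold. The settings that kept all 4 libraries left each log2 difference unchanged, so only its adjusted p could move. Both reversals, of Ifi209 and Mndal, came without ATF4 KO library 2. The lone library of a group left with 1 was assumed to vary like the others. Without 1 library each, 634 to 884 genes and 3 to 5 members were called, Ifi209 ranged from -1.38 to 0.328 and Mndal from -1.1 to 2.42, both with opposite signs under the 2 ATF4 KO libraries. With no filter 1315 genes were called, with a minimum of 3 it was 255 genes and 1 member, and with no trend it was 291 genes and 1 member, Aim2 in both. The labels do not say whether libraries with the same replicate number form a pair. Deviations of the libraries numbered 1 correlated at -0.076 over 1199 genes, which with 2 libraries per group cannot exclude a pairing. With the number as a replicate block 510 genes and 2 members were called, and Ifi205 was lost (adjusted p = 0.0783, limma).

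Other settings were chosen after the data were seen. With limma's voom on the recovered reads and size factors as library sizes, 303 genes and 1 member, Ifi205, were called, Ifi209 turned to 0.221 and Aim2 was lost (adjusted p = 0.0839). With summed reads as library sizes 608 genes were called, 595 of them lower, and 4 members were lower: Aim2, Ifi209, Ifi203 and Ifi205. There Ifi213 turned to -2.38, Ifi207 to -0.655, Mndal to -3.61 and Ifi205 to -2.41. In expected reads, the scale of summed reads put 6 members below and 1 above and turned Mndal to 0.179. With 1 ATF4 KO library left out, 0 to 1 members were below and 1 above by size factors, 4 to 5 below and 0 to 1 above by summed reads, and the ratio ranged from 0 to 3884 for Ifi204 and from 0.317 to 7.67 for Mndal. The causes were not tested. By size factors fewer than 3 ATF4 KO reads were expected for 6 members, all but Ifi203 and Mndal, too few to show a fall.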
